A study of Arabidopsis thaliana with 18 samples.

Results

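Cells below the epidermis that carried the REVOLUTA (REV) reporter, called subepidermal REV cells here, were set against cells of the same shoot apices that carried no reporter, called all negative cells. The comparison takes every gene of the deposited table of subepidermal REV over all negative cells, 1505 genes of the 8444 that stand in at least 1 of the series' 19 tables, and rests on 6 of the 18 libraries, 3 for each population. The libraries were chosen by their titles, which name the fluorescence of the sorted cells, so no measured value chose them. Of the 1505 genes, 744 were higher in subepidermal REV cells and 761 were lower.

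Both populations came from Arabidopsis thaliana plants that lack AP1 and CAL function (ap1cal), whose apices pile up meristems in place of flowers, and that were grown on soil in short days until they were 4 to 5 weeks old. All cells carried the same 3 transgenes: a blue ER protein under the epidermal ATML1 promoter (pAtML1::mTag-BFP-ER), a yellow REV fusion under the REV promoter (pREV::REV-2YPET), and a green ER protein under the promoter of MIR165A (pmiR165a::GFP-ER). No treatment was given. The labels give short days, while the study's methods describe continuous light. About 50 apices were pooled per sample and digested to protoplasts, live single cells were sorted, and subepidermal REV cells were those with the yellow signal alone. All negative cells had none of the 3 signals, so they are defined by absence, and they hold whatever subepidermal cells express neither REV nor MIR165A at a visible level. The reporter brings an extra copy of the REV coding sequence into every population, so reads of the transgene and of the REV gene itself were counted together.

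REV belongs to the class III homeodomain leucine zipper (HD-ZIPIII) factors, which promote central and upper (adaxial) fate in the shoot and the formation of vascular strands. The microRNAs miR165 and miR166 cleave HD-ZIPIII transcripts in the periphery of the meristem and on the lower (abaxial) side of leaves, where KANADI and YABBY factors are active. LITTLE ZIPPER proteins are short products of genes that HD-ZIPIII factors switch on, and they bind HD-ZIPIII proteins and block them.

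The sequences behind this opposition are shown first, because 4 of the 5 genes that carry the site are members of the comparison. In the mature microRNAs, capitals mark the seed (bases 2 to 8). In the target sites, which are written as DNA, capitals mark the bases that do not pair with miR165a, with G:U counted as unpaired.
miR165a: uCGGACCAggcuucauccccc
miR166a: uCGGACCAggcuucauucccc
REV site: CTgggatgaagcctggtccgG
PHB site: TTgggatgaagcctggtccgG
PHV site: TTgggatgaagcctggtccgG
ATHB8 site: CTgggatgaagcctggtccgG
ATHB15 site: CTggAatgaagcctggtccgG
The mature sequences and sites were read from RefSeq's TAIR10.1. The microRNAs lie at chr1:78932-78952 (miR165a, minus strand) and chr2:19176241-19176261 (miR166a, plus strand). They share the seed and differ by C17U, counted from the 5′ end of miR165a. All 5 sites lie in coding sequence and are split by an intron in the genome, with the intron inside the spans given: REV at chr5:24398787-24398898 (plus strand), PHB at chr2:14642530-14642666, PHV at chr1:10799330-10799445, ATHB8 at chr4:15866872-15866974 and ATHB15 at chr1:19412976-19413085 (all minus strand). Against miR165a, and with G:U counted as unpaired, the site of ATHB15 has 4 unpaired bases and each of the other sites has 3. The last capital G of every site lies opposite a U. The additional capital A of the ATHB15 site lies opposite base 17, which is U in miR166a.

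The deposited tables hold no value per library. For each gene they give the mean normalized count over the libraries of a fit, a log2 fold change and its standard error (SE), and an adjusted p. A gene is listed only where the adjusted p is at most 0.05 and the log2 fold change is at least 1 in size, and "higher" and "lower" below mean listed in this way. The share of the 8444 genes that is listed is 8.81% higher, 9.01% lower and 17.8% in either direction. Shares of gene lists below are taken over all list members, including those that stand in no table. They are therefore not on the same base as the shares of the 8444 genes, and lie at or under their value on that base. The level of a gene in each population was worked back from the fold changes and mean counts of the tables, for 1277 of the 1505 genes. These levels are on the scale of normalized counts, which are not corrected for gene length and are compared only between populations, and they carry no error of their own. The spread between libraries enters only through the SE. The study's methods call the 3 libraries of a population biological replicates, without saying in what they were separate, and the series' design text speaks of 4 replicates, of which 3 are analysed here. P-values measure the spread between the libraries that entered the fit. The depth of each library is unknown. In sorted bulk samples, fewer cells of a type and less RNA per cell cannot be told apart.

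The sort was checked against marker genes. REV itself had a level of 2844 in subepidermal REV cells, against 1288 in all negative cells, a log2 fold change of 1.14 ± 0.14 (SE; adjusted p = 4.7e-13). MIR165A stands in 0 of the 19 tables, so it checks nothing here. Of 8 epidermal markers, 0 were listed between subepidermal REV and all negative cells. Their summed level was 890 in subepidermal REV cells and 740 in all negative cells, far under the 33698 to 40181 of the 3 epidermal populations. ATML1, which drives the epidermal reporter, had a level of 75.6 in subepidermal REV cells and 61.1 in all negative cells, against 3257 to 3488 in the epidermal populations. Markers of inner cell types did differ. The summed level of the measured cambium markers was 740 in subepidermal REV cells against 30.5 in all negative cells, that of phloem markers was 371 against 716, that of xylem markers 42.1 against 15.3, and that of mesophyll markers 4448 against 6421. Among these, 2 of 3 cambium, 2 of 6 phloem and 1 of 7 xylem markers were higher. In addition, 1 phloem marker was lower, and 0 of 5 mesophyll markers were listed. The cambium, phloem and xylem sums rest on few genes. PXY, at 712 in subepidermal REV cells against 26.6 in all negative cells, made up most of the cambium sum. SUC2, at 42.5 against 521, set the direction of the phloem sum. APL ran the same way as SUC2, while SEOR1 and CALS7 ran the other way. The xylem sum joined VND7 (31.9 against 1.56) and XCP2 (10.2 against 13.8), which ran in opposite directions. Of the defining markers of mature xylem and phloem, VND6, XCP1, CESA7, CESA8, NAC45 and NAC86 stand in no table. Their values are therefore unknown. The part of cell type makeup in the fold changes below was not tested.

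The regulators of the adaxial to abaxial axis split by side. Of 5 HD-ZIPIII genes, 4 were higher in subepidermal REV cells and 0 were lower. REV is 1 of these 4, and since the cells were sorted on its reporter, its direction adds nothing to the count. The gene with the largest difference was not REV but ATHB8 (AT4G32880), which marks the earliest cells of a vascular strand. Its level was 305 in subepidermal REV cells, against 6.43 in all negative cells, a log2 fold change of 5.57 ± 0.48 (adjusted p = 2e-28), or 47.5-fold. ATHB15, also called CORONA, had a level of 1016 in subepidermal REV cells, against 337 in all negative cells (log2 fold change 1.59 ± 0.26). PHABULOSA (PHB), a close relative of REV in the making of leaf polarity, had a level of 545 in subepidermal REV cells, against 206 in all negative cells (1.40 ± 0.19). PHAVOLUTA (PHV) is in another table of the series but not listed here, and no level could be worked out for it. PHB and PHV carry the same site sequence. ATHB8 and REV also share one, and they differ widely in log2 fold change.

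All 4 LITTLE ZIPPER genes were higher, with log2 fold changes of 3.90 ± 0.61 for ZPR3, 3.64 ± 0.69 for ZPR2, 3.59 ± 0.52 for ZPR4 and 1.97 ± 0.67 for ZPR1. They are low genes. ZPR4 had a level of 48.4 in subepidermal REV cells, against 4.02 in all negative cells, ZPR3 had 32.3 in subepidermal REV cells, against 2.16 in all negative cells, ZPR1 had 24.8 in subepidermal REV cells, against 6.32 in all negative cells, and ZPR2 had 13.7 in subepidermal REV cells, against 1.1 in all negative cells. Fold changes of genes this low depend on the fit: in the reverse table, fitted on these 2 populations alone, ZPR3 stands at 5.17 and ZPR2 at 4.75 on the log2 scale with the sign turned.

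The class II factors (HD-ZIPII), several of which act with HD-ZIPIII factors in leaf polarity and others in shade responses, were divided: 4 of 10 were higher and 2 were lower. HAT3, which has an adaxial role, had a level of 174 in subepidermal REV cells, against 35 in all negative cells (log2 fold change 2.31 ± 0.26). HAT14 (3.13 ± 0.51), ATHB17 (2.64 ± 0.53) and HAT22 (1.15 ± 0.21) were also higher. ATHB2, known for its induction by shade, was lower at −1.38 ± 0.24, and ATHB4, the usual partner of HAT3 in polarity, was lower too at −1.25 ± 0.21, with a level of 87.2 in subepidermal REV cells, against 207 in all negative cells. HAT3 and ATHB4 thus lay on opposite sides of this comparison.

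The abaxial list ran the other way, with 0 of 12 higher and 6 lower. KANADI1 (KAN1) had a level of 11.4 in subepidermal REV cells, against 231 in all negative cells, a log2 fold change of −4.35 ± 0.32 (adjusted p = 6.3e-38). KAN2 had 29.4 in subepidermal REV cells, against 398 in all negative cells (−3.76 ± 0.33), and KAN3 had 6.39 in subepidermal REV cells, against 48.6 in all negative cells (−2.93 ± 0.51). Among the YABBY genes, YAB3 stood at −3.69 ± 0.32, FILAMENTOUS FLOWER (FIL) at −3.11 ± 0.27 and YAB2 at −2.64 ± 0.42. FIL was the most abundant of the 6, with a level of 68.5 in subepidermal REV cells, against 592 in all negative cells. For 3 members that are not listed, the other tables imply log2 fold changes between −1.75 and −0.17, all below 0.

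**Figure D1:**
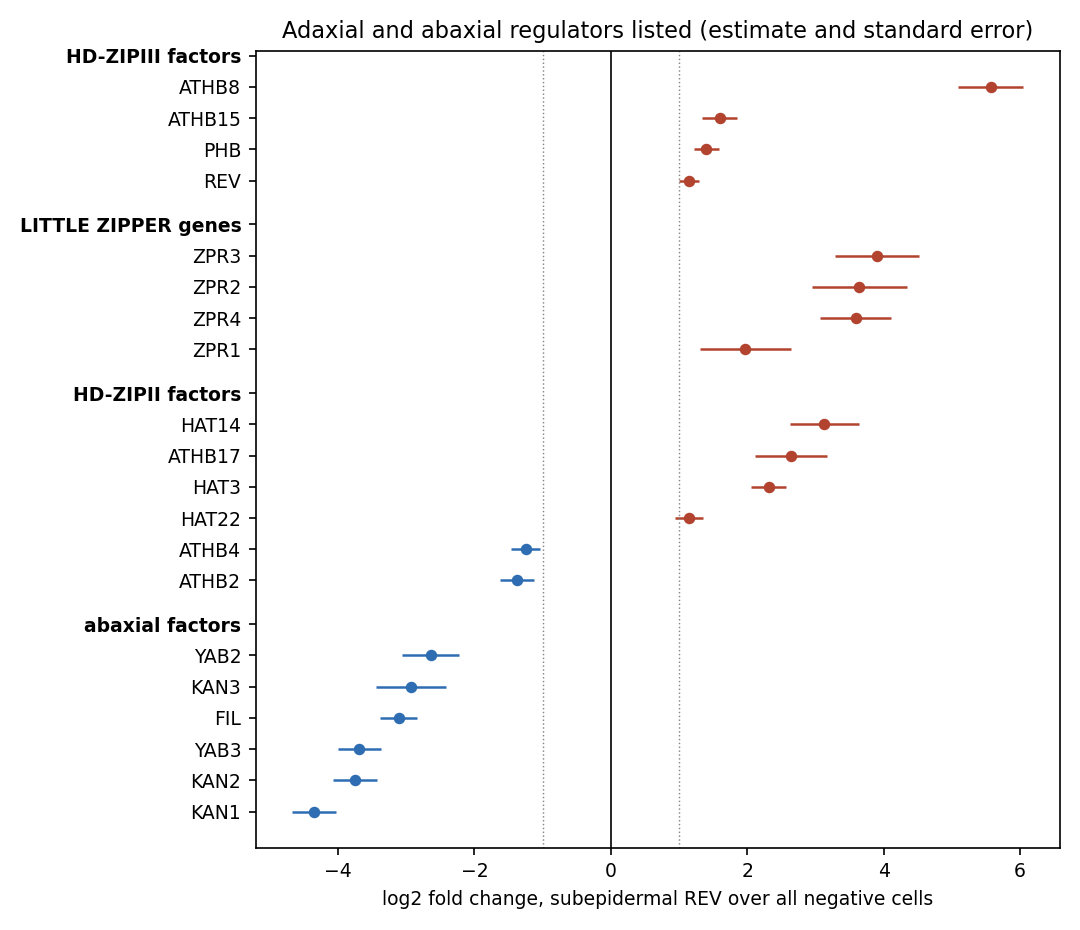
Log2 fold changes of the listed HD-ZIPIII, LITTLE ZIPPER, HD-ZIPII and abaxial genes, subepidermal REV over all negative cells. Points are estimates, bars are 1 SE and dotted lines mark the limit of 1 for listing. All 8 listed HD-ZIPIII and LITTLE ZIPPER genes lie to the right of 0 and all 6 listed abaxial genes to the left, from KAN1 at −4.35 to ATHB8 at 5.57. The 8 include REV, on whose reporter the cells were sorted.

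Genes of young vascular tissue stood at the far end of the table. Of 35 genes on the xylem and cambium list, 15 were higher (42.9%, beside 8.81% of all genes) and 0 were lower. The median log2 fold change of the 15 was 3.35, beside 1.57 for all 744 higher genes. T5L1 (AT1G68810) and TMO5 (AT3G25710) encode related basic helix-loop-helix (bHLH) factors that drive the divisions of provascular cells together with LONESOME HIGHWAY. T5L1 had the highest log2 fold change of the table, 5.84 ± 0.47, with a level of 187 in subepidermal REV cells, against 3.25 in all negative cells. TMO5 had a level of 792 in subepidermal REV cells, against 40.9 in all negative cells (4.28 ± 0.43). LOG3, which makes active cytokinin and is a target of the same pair of factors in roots, was higher at 1.79 ± 0.60.

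ACL5 makes thermospermine, a polyamine that restrains xylem formation, and it was higher at 5.78 ± 0.59, with a level of 123 in subepidermal REV cells, against 2.25 in all negative cells. SAMDC4, also known as BUD2, supplies the precursor for that step and was higher at 3.45 ± 0.72, at a level of 14.1 in subepidermal REV cells, against 1.28 in all negative cells. Upstream of these genes in roots stands the auxin response factor ARF5 (MONOPTEROS). It was an abundant gene with a level of 2269 in subepidermal REV cells, against 1082 in all negative cells, and its log2 fold change was only 1.07 ± 0.18.

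PXY (AT5G61480), the receptor kinase of the cambium, had a level of 712 in subepidermal REV cells, against 26.6 in all negative cells, a log2 fold change of 4.74 ± 0.31 (adjusted p = 6.9e-49). WOX4, the homeobox gene that acts downstream of PXY, was higher too. VND7, a NAC factor that can turn cells into vessel elements, had a level of 31.9 in subepidermal REV cells, against 1.56 in all negative cells (4.36 ± 0.67), and XYP2, which encodes a xylogen-type lipid transfer protein, had 101 in subepidermal REV cells, against 4.33 in all negative cells (4.54 ± 0.53). WOX4, VND1, VND2, VND4, DOF2.4 and TMO6, listed members taken in here after their values were seen, had log2 fold changes between 1.31 for TMO6 and 3.35 for VND1. Of the list's genes of later steps, XCP1, XCP2, CESA4, CESA7, CESA8, MYB46 and MYB83, 0 were listed. XCP2, a protease of dying vessel cells, had a level of 10.2 in subepidermal REV cells and 13.8 in all negative cells, and MYB46, MYB83, CESA7 and CESA8, which serve secondary wall formation, stand in no table, as does XCP1. Outside the list, and taken in after their values were seen, the lignin regulators MYB43 (log2 fold change 3.39), MYB20 (3.26) and MYB63 (2.17) were higher, at mean normalized counts of 6.81, 2.26 and 2.53 over the 6 populations.

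**Figure D2:**
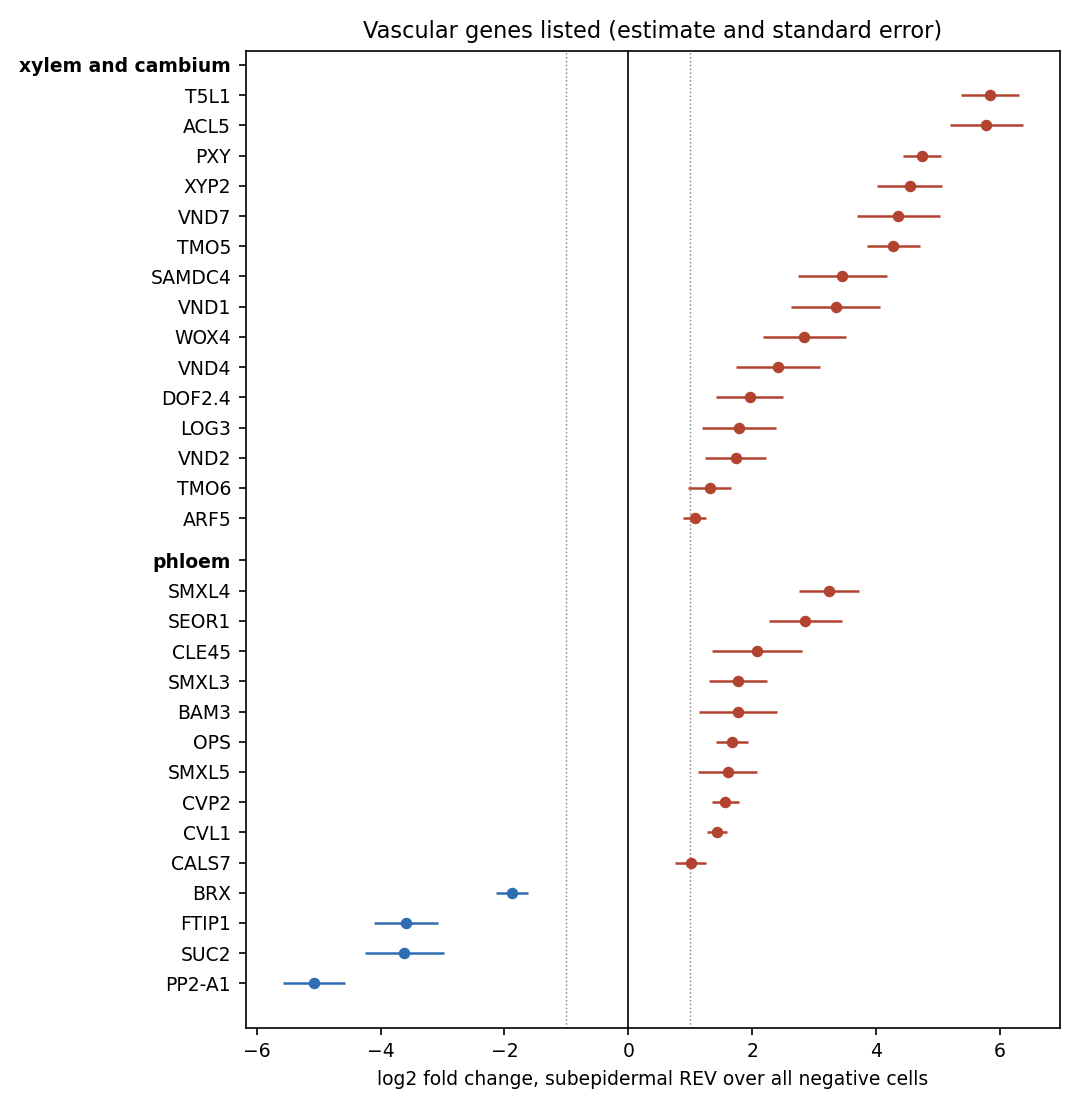
Log2 fold changes of the listed xylem, cambium and phloem genes, subepidermal REV over all negative cells, with 1 SE. The 15 xylem and cambium genes all lie above 0, and the 14 phloem genes split into 10 above 0 and 4 below, the lowest being PP2-A1 at −5.07.

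The phloem list was divided. Of 23 genes, 10 were higher and 4 were lower. The higher ones act early in the protophloem or in sieve elements. SMXL4 had a level of 338 in subepidermal REV cells, against 35.8 in all negative cells (log2 fold change 3.24 ± 0.48), and SMXL3 (1.77 ± 0.47) and SMXL5 (1.60 ± 0.48), which act with it at the start of phloem formation, were higher as well. SMXL5 was the most abundant of the trio at 1310.1 in subepidermal REV cells, against 431 in all negative cells. OPS, which promotes entry into the protophloem, had a level of 661 in subepidermal REV cells, against 206 in all negative cells (1.68 ± 0.26). CVP2 (1.57 ± 0.22) and CVL1 (1.43 ± 0.16) encode phosphatases that share this role. The receptor BAM3 and its ligand CLE45 oppose it. BAM3 had a level of 483 in subepidermal REV cells against 142 in all negative cells, and CLE45 had 8.45 against 2.0. SEOR1, a filament protein of sieve elements, was higher at 2.86 ± 0.59.

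Of the 4 lower phloem genes, 3 are best known from companion cells. SUC2, the sucrose loader of companion cells, had a level of 42.5 in subepidermal REV cells, against 521 in all negative cells (−3.62 ± 0.64, adjusted p = 7e-07). PP2-A1, a phloem lectin made in companion cells, had a level of 4.02 in subepidermal REV cells, against 135 in all negative cells (−5.07 ± 0.51). FTIP1, which helps the florigen FT leave companion cells, had 5.16 in subepidermal REV cells, against 62.2 in all negative cells (−3.59 ± 0.52). The fourth, BRX, acts in the protophloem of roots and had a level of 39.7 in subepidermal REV cells, against 146 in all negative cells (−1.88 ± 0.26). PP2-A1 and FTIP1 were at 1.28 to 5.16 in every population other than all negative cells. A pair of amino acid permeases of the vasculature ran the same way: AAP2 had a level of 47.8 in subepidermal REV cells, against 628 in all negative cells (−3.71 ± 0.70) and AAP4 had 142 in subepidermal REV cells, against 566 in all negative cells (−1.99 ± 0.67). AAP6, of the same family, was higher at 1.65 ± 0.40. APL, a regulator of phloem identity, is not listed in this comparison. Its level was 59.3 in subepidermal REV cells and 112.9 in all negative cells, against 6.27 to 6.81 in the other populations. All negative cells therefore also held vascular transcripts. Some of these were of early phloem genes that were higher still in subepidermal REV cells. The log2 fold change of subepidermal REV cells for SMXL5 was 1.60 over all negative cells and 4.04 to 4.65 over the other populations. For OPS it was 1.68 and 3.21 to 3.96. SEOR1 did not run this way, at 2.86 over all negative cells and 2.49 over epidermal gap cells.

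Several SEs in this group are large, and the fold changes of genes at the all negative side moved between the fits. SUC2 stands at −4.55 and AAP2 at −4.95 on the log2 scale in the reverse table, both further from 0 than in the main one.

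Outside the lists, the 12 highest log2 fold changes, counting only genes whose mean normalized count reached 50, included WAT1, which moves auxin out of the vacuole and is needed for fibre walls, with a level of 697 in subepidermal REV cells, against 33.1 in all negative cells (4.40 ± 0.24), and BRL2, a vascular receptor kinase also named VASCULAR HIGHWAY1, with 375 in subepidermal REV cells, against 24.4 in all negative cells (3.94 ± 0.44). RBOH F, an NADPH oxidase, had a level of 1189 in subepidermal REV cells, against 111 in all negative cells (3.42 ± 0.38). The bHLH genes AT2G41130 (3.58 ± 0.48) and AT1G61660 (3.24 ± 0.46) belonged to the same 12. So did AT3G18280, annotated as a lipid transfer protein (3.32 ± 0.67), AT1G47670, annotated as an amino acid transporter (3.07 ± 0.23), and AT1G23340, of unknown function, whose value was 3.91 here and 5.31 in the reverse table. RBOH F and AT1G61660 were at 5.97 to 45.4 in the 4 other populations, under their level in all negative cells.

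SHORT-ROOT (SHR), made in the stele of roots and moved into the neighbouring layer, had a level of 181 in subepidermal REV cells, against 41.9 in all negative cells (2.12 ± 0.28). JACKDAW (JKD), a zinc finger partner of SHR in the root ground tissue, went the other way with a level of 21.3 in subepidermal REV cells, against 499 in all negative cells, a log2 fold change of −4.55 ± 0.32 (adjusted p = 5.2e-43). These were the only listed genes of a list of 14 SHR, SCARECROW and related zinc finger genes.

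Auxin genes did not move as a block. Among transport genes, 2 of 16 were higher and 5 were lower. The importer LAX2 was higher at 1.01 ± 0.32. PIN5, which acts at the ER, had a level of 7.02 in subepidermal REV cells, against 63.8 in all negative cells (−3.18 ± 0.58). LAX3 (−3.39 ± 0.66), LAX1 (−1.78 ± 0.20), PIN3 (−1.22 ± 0.30) and ABCB1 (−1.18 ± 0.22) were lower too. LAX2 and LAX1, importers of one family, thus lay on opposite sides. Among 16 synthesis and conjugation genes, 3 were higher and 5 were lower. The higher ones make auxin: TAA1, of the first step, had a level of 113 in subepidermal REV cells, against 22.2 in all negative cells (2.35 ± 0.37), and YUC6 (2.58 ± 0.59) and YUC2 (2.19 ± 0.72) belong to the second step. Of the lower ones, 4 belong to the GH3 family, which ties auxin to amino acids, and several of these genes are themselves induced by auxin. GH3.2 had a level of 242 in subepidermal REV cells, against 2247 in all negative cells (−3.21 ± 0.27), GH3.5 had 784 in subepidermal REV cells, against 3305 in all negative cells (−2.08 ± 0.21), and GH3.17 (−2.66 ± 0.35) and GH3.3 (−1.27 ± 0.27) were also lower. The fifth, TAR2, is a relative of TAA1 and stood at −1.3001 ± 0.28. Of 40 auxin response genes, 22 of which stand in at least 1 table, 4 were higher (10%) and 3 lower. They included IAA20 (2.01 ± 0.59), IAA28 (2.099 ± 0.49) and IAA30 (1.86 ± 0.50) on the higher side, and IAA7 (−2.24 ± 0.27), IAA14 (−2.19 ± 0.50) and IAA17 (−1.17 ± 0.35) on the lower side.

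Other hormone lists were thinner. Of 40 cytokinin genes, 24 of which stand in at least 1 table, 4 were higher (10%) and 0 lower. Of the 4, 3 encode LOG enzymes, which release active cytokinin. LOG7, known from the shoot meristem, had a level of 313 in subepidermal REV cells, against 56.3 in all negative cells (2.48 ± 0.25), and LOG1 was higher at 1.02 ± 0.29. ARR9, a response regulator that damps cytokinin signalling, stood at 2.02 ± 0.42. In brassinosteroid synthesis, CPD had a level of 463 in subepidermal REV cells, against 65 in all negative cells (2.83 ± 0.25) and DWF4 had 234 in subepidermal REV cells, against 51.4 in all negative cells (2.18 ± 0.36), both of which catalyse early oxidations. The receptor BRL3 was higher (1.36 ± 0.24), and BR6OX2, of the last step, was lower (−1.16 ± 0.28). These 4 were the listed genes of 12. Of 24 gibberellin genes, 11 of which stand in at least 1 table, 0 were higher and 3 lower (12.5%, beside 9.01% of all genes). GA20OX2, a synthesis enzyme, stood at −1.60 ± 0.45, GA2OX4, an inactivating enzyme, at −1.27 ± 0.27, and GA3OX3 at −1.02 ± 0.31.

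**Figure D3:**
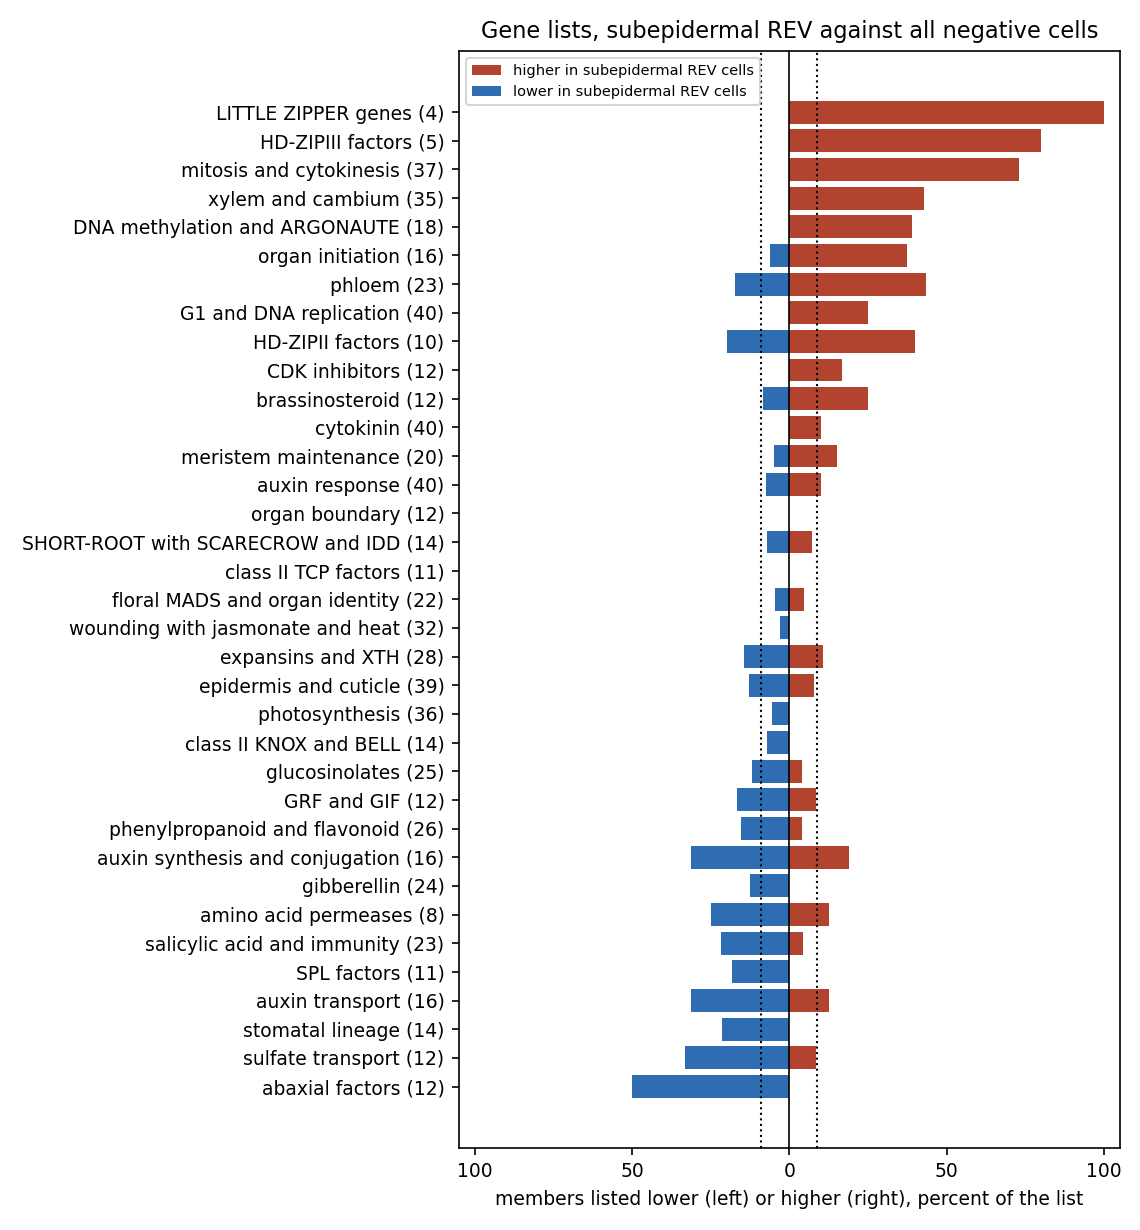
Share of each gene list that was listed lower (left) or higher (right) in subepidermal REV cells, with the list size in brackets. Dotted lines mark the shares of all 8444 genes, 9.01% lower and 8.81% higher. The list shares also count members that stand in no table, so they are not on the same base as these lines. The LITTLE ZIPPER list is at 100% higher, the mitosis list at 73.0% higher and the abaxial list at 50.0% lower.

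Meristem genes showed moderate differences. Of 20 maintenance genes, 3 were higher and 1 was lower. AGO10, the ARGONAUTE that sequesters miR165 and miR166 and so shields HD-ZIPIII transcripts, was the most abundant listed one, with a level of 3575 in subepidermal REV cells, against 1452 in all negative cells (1.299 ± 0.21, adjusted p = 8.4e-08). CLV3, the peptide gene of the stem cells, had a level of 21.1 in subepidermal REV cells, against 5.36 in all negative cells (1.98 ± 0.54). WUS, which keeps the stem cells, was higher at 2.13 ± 0.72, from a mean normalized count of only 3.68 over the 6 populations, and at 3.95 in the reverse table. STM is not listed, with a level of 1097 in subepidermal REV cells and 731 in all negative cells. CLV1 is not listed either and ran the other way, with a level of 266 in subepidermal REV cells and 475 in all negative cells. For 7 maintenance genes that are not listed, the other tables imply log2 fold changes, 3 above 0 and 4 below, with a median of −0.75. KNAT1, a related homeobox gene, was lower at −1.08 ± 0.21. Of 16 organ initiation genes, 6 were higher and 1 was lower. UFO had a level of 40.4 in subepidermal REV cells, against 7.42 in all negative cells (2.45 ± 0.57), PUCHI had 41.9 in subepidermal REV cells, against 8.81 in all negative cells (2.25 ± 0.51), and DRN (2.17 ± 0.56) was higher as well. The AINTEGUMENTA-LIKE genes AIL5 (1.83 ± 0.34), AIL6 (1.42 ± 0.19) and AIL7 (1.42 ± 0.33), which support meristem function and auxin-driven organ formation, were higher together. PTL, which represses growth between sepals, was lower at −3.19 ± 0.33. Of 12 organ boundary genes, 0 were listed in either direction. For 8 of these the other tables imply log2 fold changes between −0.74 and 0.94. CAL, one of the genes mutated in these plants, was higher at 1.21 ± 0.28, and PI, a floral organ gene, was lower at −1.82 ± 0.32, as the only listed genes of 22 floral genes.

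Division genes were higher in large part. Of 37 mitosis and cytokinesis genes, 27 were higher (73.0%) and 0 lower, with log2 fold changes from 1.01 to 1.85 and a median of 1.32. CYCB1;3 had a level of 83.3 in subepidermal REV cells, against 23.7 in all negative cells (1.81 ± 0.31) and CYCA1;1 had 167 in subepidermal REV cells, against 53.9 in all negative cells (1.63 ± 0.24), both cyclins of G2 and mitosis. The mitotic kinase CDKB2;1 (1.46 ± 0.24), the cytokinesis syntaxin KNOLLE (1.31 ± 0.21) and the phragmoplast kinesins HIK (1.33 ± 0.23) and POK1 (1.55 ± 0.24) were higher too. Of 40 genes of G1 and DNA replication, 10 were higher and 0 lower. These included PCNA1 (1.48 ± 0.40), the sliding clamp of replication, and the helicase subunits MCM6 (1.12 ± 0.29), MCM4 (1.03 ± 0.30) and MCM7 (1.02 ± 0.32). Genes that keep up chromatin marks were higher beside them: 7 of 18 on the DNA methylation and ARGONAUTE list were higher and 0 lower. MET1, which maintains CG methylation, had a level of 807 in subepidermal REV cells, against 277 in all negative cells (1.54 ± 0.28), and DDM1 (1.62 ± 0.24), CMT3 (1.34 ± 0.31), KYP (1.28 ± 0.20) and the VIM1 (1.38 ± 0.34) and VIM3 (1.27 ± 0.36) genes were higher, as was AGO5 (1.86 ± 0.56). A pair of inhibitors of cyclin-dependent kinases were higher as well, KRP2 with a level of 391 in subepidermal REV cells, against 113 in all negative cells (1.79 ± 0.26) and SMR4 (1.57 ± 0.50), out of 12. In epidermal REV cells, CYCB1;3 was at a level of 175 and MET1 at 1658.

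The other side of the table held more of the genes with a high mean normalized count, which is a mean over all 6 populations. A gene high in subepidermal REV cells alone has a low mean by this measure, so the split by abundance is partly built in. Where the mean normalized count reached 1000, 34 of 43 listed genes were lower (79.1%), beside 761 of all 1505. The 10 most abundant listed genes were all lower. EXT3, a cell wall extensin, had a level of 807 in subepidermal REV cells, against 11589.9 in all negative cells (−3.84 ± 0.25, adjusted p = 5.2e-51), or 14.4-fold lower in subepidermal REV cells. ERD6, a sugar transporter gene, had a level of 2804 in subepidermal REV cells, against 6390.1 in all negative cells (−1.19 ± 0.23). PEN2, a myrosinase of indole glucosinolate defence, had 1278 in subepidermal REV cells, against 3722 in all negative cells (−1.54 ± 0.25), and CRK10, a receptor kinase gene, had 992 in subepidermal REV cells, against 2577 in all negative cells (−1.38 ± 0.18). PRXR1 (−1.33 ± 0.16), ENODL2 (−1.34 ± 0.16), AT1G55450 (−1.21 ± 0.27), AT1G03220 (−1.10 ± 0.27) and the overlapping genes AT4G38550 (−1.49 ± 0.19) and AT4G38552 (−1.45 ± 0.17) made up the rest. Apart from EXT3, these 10 were lower by no more than 1.54 on the log2 scale.

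The largest drops fell on other genes. FAH1, which makes sinapate and syringyl lignin precursors, had a level of 17.38 in subepidermal REV cells, against 337 in all negative cells (−4.28 ± 0.34). FMO GS-OX4, which oxidises the side chain of glucosinolates, had 13.1 in subepidermal REV cells, against 240.4 in all negative cells (−4.203 ± 0.42). AT5G07770, annotated as an actin-binding formin, was the most abundant after EXT3 and MT3 among the 12 lowest, with a level of 83.5 in subepidermal REV cells, against 1466 in all negative cells (−4.13 ± 0.21). AT4G31690, of the B3 factors, stood at −4.21 ± 0.29, MIPS3, a myo-inositol phosphate synthase, at −4.11 ± 0.42, NUDT12 at −3.97 ± 0.40 and SQE6, a squalene epoxidase, at −3.78 ± 0.47. MT3, a metallothionein, had a level of 474 in subepidermal REV cells, against 6258 in all negative cells (−3.72 ± 0.56), and in the 4 other populations it was at 137 to 271, so it was highest in all negative cells. FMO GS-OX4 was highest there too, at 9.58 to 74.5 in the 4 other populations.

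Defence, metabolic and stress lists were read against the 9.01% of all genes that were lower. Of 23 salicylic acid and immunity genes, 5 were lower (21.7%) and 1 was higher. PBS3 (−2.51 ± 0.34) makes a precursor of salicylic acid, CBP60G (−1.11 ± 0.28) switches its synthesis on, FLS2 (−1.18 ± 0.34) perceives flagellin and BIK1 (−1.23 ± 0.17) is a kinase that acts after it, and WRKY54 (−1.09 ± 0.32) is a salicylic acid response factor. PAD4, a lipase-like partner of EDS1, was higher with a level of 1087 in subepidermal REV cells, against 475 in all negative cells (1.19 ± 0.19). Of 25 glucosinolate genes, 17 of which stand in at least 1 table, 3 were lower (12%) and 1 was higher. The myrosinases TGG1 (−2.88 ± 0.73) and TGG2 (−2.39 ± 0.72) and the regulator MYB51 (−1.88 ± 0.21) were lower, and the transporter GTR2 was higher (1.08 ± 0.18). Of the named genes in both tables, TGG1 changed most between fits, at −6.11 in the reverse table, and TGG1 and TGG2 are near copies whose reads may be split between them. Of 26 phenylpropanoid and flavonoid genes, 4 were lower (15.4%), FAH1, PAP1 (−2.103 ± 0.65), TT8 (−1.68 ± 0.54) and TT7 (−1.63 ± 0.55), and CAD4 was higher (1.01 ± 0.24). The members that are not listed leaned the other way. For 16 of them the other tables imply log2 fold changes, 13 above 0 and 3 below, with a median of 0.33. Of 12 sulfate transporter genes, SULTR3;1 (−2.16 ± 0.33), SULTR2;2 (−2.13 ± 0.59), SULTR3;2 (−1.22 ± 0.31) and SULTR3;3 (−1.17 ± 0.32) were lower (33.3%), and SULTR3;4 was higher (1.55 ± 0.26). Of 32 wound, jasmonate and heat genes, 0 were higher and 1, JAZ7, was lower (−1.13 ± 0.37), or 3.12%. Both populations were digested to protoplasts, so a response to digestion that they share cannot be seen in this comparison.

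Few photosynthesis genes were listed. Of 36 genes, 0 were higher and 2 were lower, RBCS3B (−1.06 ± 0.30) and ATPC1 (−1.03 ± 0.16), a share under that of all genes. RBCS3B has close copies that can share its reads. For 22 members that are not listed, the other tables imply log2 fold changes between −0.86 and −0.28, all below 0, with a median of −0.59. Of 14 stomatal genes, SCRM2 (−1.04 ± 0.27), FAMA (−2.34 ± 0.59) and STOMAGEN (−1.87 ± 0.64) were lower. STOMAGEN, which the mesophyll makes to promote stomata, had a level of 3.18 in subepidermal REV cells, against 11.7 in all negative cells. FAMA, of the guard cell lineage, had 2.74 in subepidermal REV cells, against 13.9 in all negative cells, both far under its level of 321 in epidermal gap cells, which carry the epidermal marker alone.

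Genes known from the epidermis or its regulators were listed in both directions, at shares near those of all genes. ANL2, a class IV homeodomain gene, had a level of 324 in subepidermal REV cells, against 1522 in all negative cells (−2.23 ± 0.15), and HDG1 had 152 in subepidermal REV cells, against 770.3 in all negative cells (−2.34 ± 0.20). HDG11 (−1.38 ± 0.29), the wax gene CER3 (−1.21 ± 0.15) and LTPG1 (−1.31 ± 0.18) were lower as well. LACS2 (1.21 ± 0.38), CER4 (2.09 ± 0.62) and LTP2 (1.25 ± 0.39) were higher. Out of 39 genes, 5 were thus lower (12.8%, beside 9.01% of all genes) and 3 higher (7.69%, beside 8.81%). For 25 members that are not listed, the other tables imply log2 fold changes, 18 above 0 and 7 below, with a median of 0.14. HDG1 was at 1077 in subepidermal miR165a cells and at 77.6 to 321 in the epidermal populations, and ANL2 was at 2345 and at 1500.1 to 1648, so neither was highest in the epidermis.

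Growth genes were listed in both directions, and their shares are set beside 8.81% higher and 9.01% lower among all genes. Of 28 expansin and wall-loosening XTH genes, 3 were higher (10.7%), EXPA1 (1.17 ± 0.39), XTH15 (1.05 ± 0.23) and XTH23 (1.64 ± 0.29). Another 4 were lower (14.3%), EXPA9 (−3.03 ± 0.47), EXPA10 (−1.74 ± 0.22), EXPA14 (−1.67 ± 0.59) and XTH6 (−1.41 ± 0.30). Of 12 genes of the growth-regulating factors (GRF) and their partners, GRF8 (−1.47 ± 0.34) and GRF7 (−2.29 ± 0.26) were lower (16.7%) and GRF6 (1.23 ± 0.42) was higher (8.33%). Of 11 SPL genes, which mark the change of phase, SPL3 had a level of 110.2 in subepidermal REV cells, against 567 in all negative cells (−2.36 ± 0.27) and SPL8 had 310.5 in subepidermal REV cells, against 964 in all negative cells (−1.63 ± 0.17). BLH5 (−2.03 ± 0.38) was the single listed gene of 14 class II KNOX and BELL genes, and 0 of 11 class II TCP genes were listed.

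To see which members set subepidermal REV cells apart from the series as a whole, the listings against all 5 other populations were counted. Of the 744 higher genes, 258 were also higher against each of the other populations (34.7%), which is 3.06% of all 8444 genes, and of the 761 lower genes 93 were lower against each (12.2%), 1.1% of all genes. ATHB8 led the higher ones, with a log2 fold change of at least 4.70 against every population, followed by T5L1 (at least 4.64), XYP2 (4.42), LRL1 (4.35), TMO5 (4.28), ACL5 (4.199), AT3G15680 (4.07) and VND7 (4.06). LRL1 is a bHLH gene known from root hairs, with a level of 36.7 in subepidermal REV cells, against 1.8 in all negative cells, and AT3G15680, a zinc finger gene, had a level of 238 in subepidermal REV cells, against 14.2 in all negative cells. Of the 15 listed xylem and cambium genes, 12 belonged to the 258, as did all 10 higher phloem genes. Of the 27 mitosis genes, 0 did. PHB and REV did not either, while ATHB8 and ATHB15 did. On the lower side, AT4G31680, a B3 family gene like AT4G31690, led with a difference of at least 2.74 against every population, and SUC5 (2.73), AT2G19650 (2.49), CYP71B22 (2.41), AT1G54820 (2.38), AT5G66310 (2.36), DRB5 (2.29) and AT1G72130 (2.28) followed. ANL2, CER3, HDG11, LTPG1, ATHB2 and ATHB4 were among the 93. All these comparisons share the subepidermal REV libraries, so a gene that was high or low in those libraries would carry into each.

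**Figure D4:**
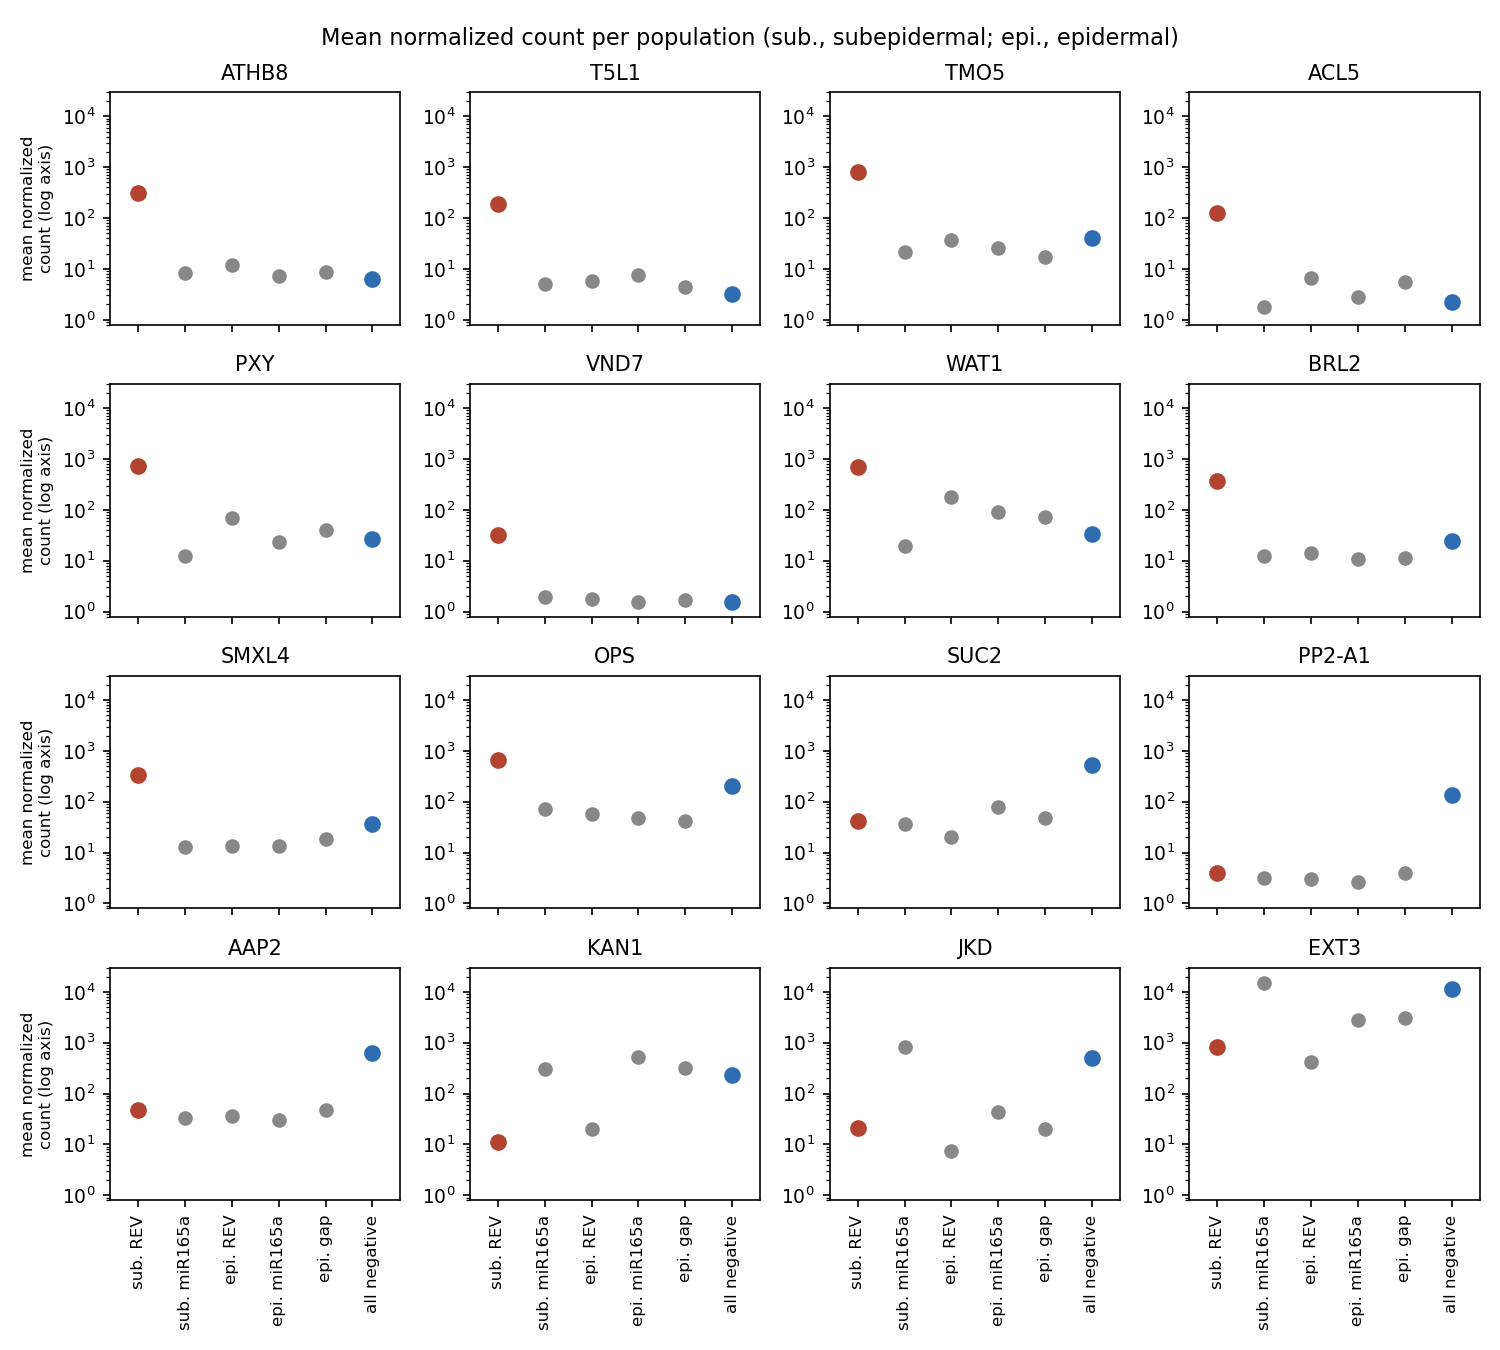
Mean normalized counts of 16 genes in the 6 sorted populations on a log axis, worked back from the deposited tables, with no error bars because the tables hold no value per library. Subepidermal REV cells are in red, all negative cells in blue and the others in grey. ATHB8, T5L1, TMO5, ACL5, PXY and VND7 are highest in subepidermal REV cells, and SUC2, PP2-A1 and AAP2 in all negative cells.

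Subepidermal miR165a cells, which carried the green signal alone, were set against the same all negative libraries, with 428 genes listed. Side by side, KAN1 had levels of 11.4 in subepidermal REV cells, 302 in subepidermal miR165a cells and 231 in all negative cells, JKD had 21.3, 813 and 499, and EXT3 had 807, 14613 and 11589.9. For these genes the all negative cells were nearer to the miR165a cells than to the REV cells. PP2-A1 had 4.02, 3.15 and 135 in the same order, and MT3 had 474, 167 and 6258, so for these both reporter populations were far under the all negative cells.

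The epidermis gave a comparison of the same kind without any shared library: epidermal REV cells, with the blue and yellow signals, over epidermal gap cells, with the blue signal alone. There 308 genes were higher (3.65% of 8444) and 1061 lower (12.6%). Listed in both comparisons were 480 genes. Of these, 183 were higher in both layers, which is 24.6% of the 744 subepidermal and 59.4% of the 308 epidermal genes, and 261 were lower in both, 34.3% of the 761 and 24.6% of the 1061. Another 31 were higher below the epidermis and lower within it, and 5 the other way. Of the 27 mitosis genes higher below the epidermis, 21 were higher in the epidermal comparison too.

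The difference between the layers was tested for the 480 genes by a z test, two-sided, that set the gap between both log2 values against their joined SEs, with p adjusted over the 480 (Benjamini-Hochberg). At an adjusted p under 0.05 the subepidermal value was above the epidermal one for 49 genes (10.2% of the 480) and below it for 25 (5.21%), 15.4% in all. Of these, 36 had opposite signs, for which passing was fixed by the listing of both values, and 38 had the same sign in both. AT5G50090, which has no described function, had the largest difference, 8.15 ± 0.74 (adjusted p = 1.8e-25): its log2 fold change was 5.06 ± 0.57 below the epidermis and −3.09 ± 0.47 within it. KAT2, a potassium channel of guard cells, stood at 1.96 ± 0.71 and −4.93 ± 0.67, and PHO1, a phosphate exporter of the stele that guard cells also use, at 1.81 ± 0.62 and −4.77 ± 0.57. HAT14 stood at 3.13 ± 0.51 and −3.64 ± 0.51. KAT2 was at 4.26 in subepidermal REV cells and at 47.3 in epidermal gap cells, PHO1 at 7.43 and 61.7, and in both cases the other 4 populations were at 2.27 or below.

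WAT1 was higher in both layers, with 4.40 ± 0.24 below the epidermis and 1.34 ± 0.22 within it, a difference of 3.06 ± 0.33 (adjusted p = 1.4e-18). FIL and YAB3 were lower in both and more so below the epidermis, with differences of −1.58 ± 0.39 and −1.27 ± 0.43. JKD was lower by 4.55 below the epidermis and by 1.43 within it. Among the 5 genes that were lower below the epidermis and higher within it were OFP6 (−2.60 ± 0.45 and 1.59 ± 0.42), an OVATE family gene, GA3OX3 (−1.02 ± 0.31 and 2.73 ± 0.26), of gibberellin synthesis, and UGT84A2 (−1.12 ± 0.31 and 1.85 ± 0.30), which attaches glucose to sinapate. The remaining pair were AT2G36026 and AT2G36030, which overlap in the genome. The reference cells of the layers differed: the summed level of the stomatal markers was 541 in epidermal gap cells and 41.7 in all negative cells. The part of this in the differences was not tested.

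**Figure D5:**
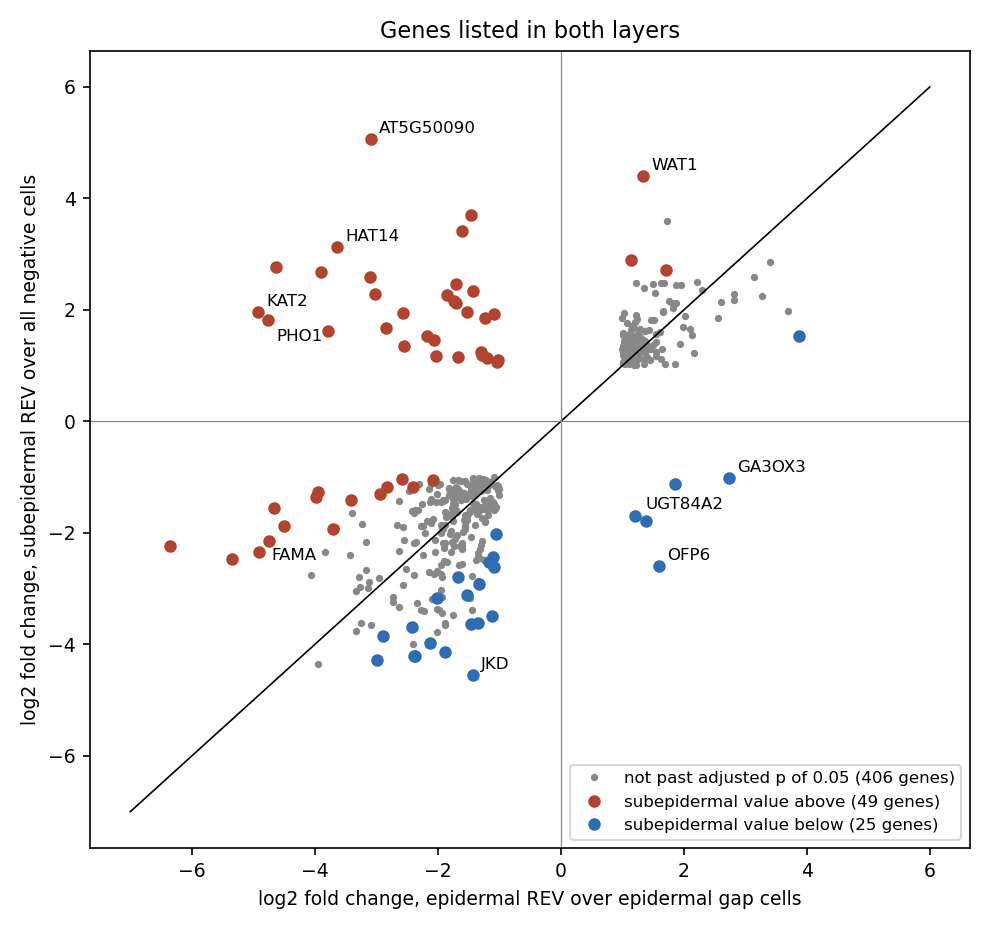
Log2 fold changes of the 480 genes listed in both layers, subepidermal REV over all negative cells (vertical) against epidermal REV over epidermal gap cells (horizontal). Red points (49) lie above and blue points (25) below the line of equal values at an adjusted p under 0.05, and grey points (406) do not pass. HAT14, KAT2, PHO1 and AT5G50090 are higher below the epidermis and lower within it.

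A search for the letters AATNATT on both strands of the 250 bases upstream of each start, a core that many homeodomain factors bind, found them in 33.5% of 720 higher genes, 32.9% of 744 lower genes and 30.5% of 27443 protein-coding genes. They stood before 3 of the 15 higher xylem and cambium genes (20%), 2 of the 6 lower abaxial genes and 1 of the 3 LITTLE ZIPPER genes searched. The longer palindromic site known for HD-ZIPIII factors, which contains this core, was found before 0 of the 720 higher genes, 0 of the 744 lower genes and 14 of the 27443. A match is a description of these letters only.

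Of the 1505 genes, 323 overlap another annotated gene, and since the library kit is not described as keeping strand, their reads may belong to the neighbour. Among the named genes this holds for 33, including REV, KAN1, ACL5, ARF5, EXT3, MT3, PP2-A1, CPD, BRL3, SPL3, SPL8, MIPS3 and CRK10. The reverse table, made from these 2 populations alone, shares 1328 genes with the main one, 0 of them with the opposite direction, and their log2 fold changes differed by a median of 0.081. Both rest on the same libraries of these populations and the same limits for listing, so an opposite direction could hardly appear.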

How the data were processed

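RNA of sorted protoplasts was sequenced from 18 libraries, 3 for each of 6 populations. Per the labels and the study's methods, reads were trimmed with cutadapt after FastQC, aligned to TAIR10 with TopHat, counted over exons with HTSeq and compared with DESeq2, with versions not given in the sources used here. The deposited tables hold, for each pair of populations, the authors' mean normalized count (a signal that is never negative, scaled for library size by the authors), log2 fold change with its SE, a Wald statistic (a score computed by the authors) and p-values with their Benjamini-Hochberg adjusted values. As deposited they list only genes whose adjusted p is at most 0.05 and whose log2 fold change is 1 or more in size. All of these columns are the authors' own comparisons; the values above are read from them because no counts were analysed here, and no test was refitted. Whether other genes were tested is unknown, so shares of all genes are taken over the 8444 genes of any table. Shares of gene lists are taken over all list members.

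Fold changes of 15 tables add up around 6738 triangles of populations to within 1.15e-14, so these tables came from 1 fit on 6 populations. The other 4 came from fits on 2 populations. In the fit on 6, fold changes of low genes were drawn towards 0: under a mean count of 10 the median size was 2.47, against 3.49 in the fit on 2, and at 50 or more it was 1.41 against 1.46. Levels were solved by chaining fold changes to the mean counts. At counts of 50 or more, levels from both kinds of fit had a median ratio of 0.988 for subepidermal REV and 0.992 for all negative cells (700 genes).

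The z test between layers treats both estimates as independent. The libraries are separate, but dispersion was shared in the fit. Whether populations came from the same digest or sort run is not stated. Python 3.11.15, pandas 2.3.3, numpy 2.4.6, scipy 1.17.1 and matplotlib 3.10.9 were used. Gene names, overlaps and sequences came from RefSeq's TAIR10.1, which holds 1503 of the 1505 genes.

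The members, the 35 gene lists (5 list members were left out for uncertain identity) and the rules were chosen with earlier results of these data known. Named were all listed members of lists of up to 20 genes, up to 8 per direction by adjusted p from longer lists, the 12 highest and 12 lowest genes at a mean count of 50, the 10 most abundant, the 6 largest layer differences per sign, and the 8 per direction that lead against every population. Alternatives were stricter limits on log2 fold change, adjusted p and count, the reverse table, sums of 2 other tables, genes without overlaps, and wider SEs. Values of 1 listed auxin transport gene are not reported here.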

Additional observations from a re-analysis of the deposited data

Results flagged for a closer look

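For 26 named genes the log2 fold change of REV cells over marker-free cells differed between the layers by the z test (adjusted p under 0.05). Where the signs were opposite in the layers, passing was fixed by the listing of both values, so for those genes the test adds nothing. The naming rule also took the 6 largest differences of each sign among genes that passed, so passing was fixed for these too. Among all 480 genes tested, 15.4% passed. The values below are the subepidermal minus the epidermal log2 fold change.

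Among the genes with positive values, AT5G50090 had 8.15, AT2G28410 7.4, KAT2 6.89, HAT14 6.77, PHO1 6.58 and AT5G22310 6.57. All 6 were higher below the epidermis and lower within it, and all are low genes with mean normalized counts of 7.61 to 21.2. HAT14 had levels of 35.8 in subepidermal REV cells, 3.8 in epidermal REV cells, 47.4 in epidermal gap cells and 4.09 in all negative cells. WAT1 had 3.06, and it was higher in both layers. PAD4 had 2.48 and LTP2 had 2.56, each higher below the epidermis and lower within it. FAMA had 2.56, SULTR3;3 had 1.23 and SCRM2 had 1.04, all of which were lower in both layers and less so below the epidermis.

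Among the genes with negative values, OFP6 had −4.19, GA3OX3 −3.75, AT2G36026 −3.19, UGT84A2 −2.98 and AT2G36030 −2.91. These 5 were lower below the epidermis and higher within it. OFP6 had levels of 12.7 in subepidermal REV cells and 76.9 in all negative cells, and of 102 in epidermal REV cells and 33.8 in epidermal gap cells. JKD had −3.12, AT5G07770 −2.26, NUDT12 −1.84, AT4G31690 −1.84, FMO GS-OX4 −1.81, FIL −1.58, FAH1 −1.29, YAB3 −1.27 and EXT3 −0.953. These 9 were lower in both layers, and further below 0 beneath the epidermis. JKD, for example, had levels of 21.3 in subepidermal REV cells and 499 in all negative cells, against 7.49 and 20.24 in epidermal REV and gap cells.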

How the results depend on the processing

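At a log2 limit of 2 the comparison kept 522 genes, 236 higher and 286 lower, and at a mean count of 50 it kept 795, 358 higher and 437 lower. Both are subsets of the 1505 by construction. At an adjusted p of 0.01, in the reverse table and without overlapping genes the counts stayed within 1.5 times. Of 206 named genes, 193 stand in the reverse table, and 0 of these changed direction. That table rests on the same libraries and the same limits for listing, so a named gene could hardly appear in it with the other direction. A sum of 2 other tables could be formed for 118, and since fold changes of that fit add up, it equals the main value by construction and shows nothing about stability. The reverse table moved 19 named genes by over 0.58 on the log2 scale, TGG1 the most, by 3.23. The 74 genes that differed between layers became 44 with SEs 1.5 times as wide (8 of them with the subepidermal value below) and 41 at a mean count of 50 (19 with the subepidermal value above). Genes higher against every population numbered 109 at a log2 limit of 2 and 86 at a mean count of 50, in place of 258. Genes lower against every population numbered 12 at a limit of 2, in place of 93. No paired analysis was possible because the tables hold no values per library, and for the same reason no library could be left out.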
